A study of Mus musculus with 2 samples.

Results

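The miRNA genes described here are those with a number from 1000 to below 4000 in their symbols, measured by microRNA sequencing of mouse cerebral cortex. A gene was taken when its symbol was Mir followed by such a number, with or without a letter or copy suffix. Mir1224, Mir1981, Mir1298, Mir1264, Mir1912 and the genes in a fixed stretch of the Dlk1-Dio3 domain on chromosome 12 were left out. This removed 13 genes in all. Mir1247, in an exon of Dio3os, and Mir1906-1, in an exon of Meg3, lie outside that stretch and were kept as members. The rule used no measured value and found 166 of the 2202 miRNA genes counted. The samples were the left cerebral cortices of 2 male B6CASTF1/J mice aged 25 days, an F1 cross between the C57BL/6J and CAST/EiJ strains, each giving 1 library of RNA under 30 bases. Neither mouse carried a labelled mutation or treatment, so there was 1 group of 2 and no contrast between conditions. Both samples carry the same donor entry, but their descriptions number the animals separately, so they were taken as 2 mice. With 1 library per mouse, a difference between mice and a difference between libraries cannot be told apart.

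A miRNA gene is transcribed as a hairpin, which Drosha and Dgcr8 cut from the primary transcript and Dicer trims to a duplex of short RNAs. A strand loaded into an Argonaute protein pairs with messenger RNAs mainly through its seed, bases 2 to 8 counted from the 5′ end. Registry numbers follow the order of discovery, so these genes were mostly registered from deep sequencing, after the abundant and conserved families. Some such hairpins are parts of other structured RNAs, such as small Cajal body RNAs (scaRNAs), small nucleolar RNAs (snoRNAs) or tRNAs.

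RefSeq sequences (GRCm38.p6) were matched by symbol for 145 of the 166 members, which held 216 mature sequences with 209 different seeds. The hairpin was matched for 135 members, each at the place the gene annotation gives. The mature RNAs of the most abundant members are shown first, because they carried most of the counts below, with the seed in capitals. The counts are per gene, so they do not say which arm was sequenced.
mmu-miR-1839-5p: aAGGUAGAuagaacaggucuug
mmu-miR-1983: cUCACCUGgagcauguuuucu
mmu-miR-1249-3p: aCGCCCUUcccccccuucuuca
mmu-miR-3099-5p: cCAGCUUCcuuccagcccuug
mmu-miR-3099-3p: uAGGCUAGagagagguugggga
mmu-miR-3102-5p: gUGAGUGGccaggguggggcug
mmu-miR-3102-3p: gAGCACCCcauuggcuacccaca
mmu-miR-3102-5p.2-5p: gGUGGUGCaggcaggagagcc
mmu-miR-3102-3p.2-3p: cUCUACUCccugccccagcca
mmu-miR-1843a-5p: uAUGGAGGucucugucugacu
mmu-miR-1843b-5p: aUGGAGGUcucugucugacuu
mmu-miR-3475-5p: aAAUCAUGuacccccacagagg
mmu-miR-3475-3p: uCUGGAGGcacaugguuugaa
mmu-miR-1306-5p: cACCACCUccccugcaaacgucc
mmu-miR-1306-3p: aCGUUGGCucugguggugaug
mmu-miR-3059-5p: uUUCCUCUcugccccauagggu

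Seeds were compared with those of genes numbered below 1000, let-7 genes and the other members only. Few members shared a seed with these. Of the 145 members with a mature sequence, 11 shared a seed with a gene numbered below 1000 or a let-7 gene, and 14 shared one with another member. The seed of miR-1983 was that of miR-412-3p, and the seed of miR-3475-5p was that of miR-96-3p. These pairs also share base 9 and run apart after it, as the following sequences show. miR-1961 holds the let-7 seed and is set beside let-7g, and miR-3064-5p and miR-3085-3p share their first 8 bases.
mmu-miR-412-3p: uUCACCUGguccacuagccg
mmu-miR-96-3p: cAAUCAUGuguagugccaauau
mmu-miR-1961: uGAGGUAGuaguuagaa
mmu-let-7g-5p: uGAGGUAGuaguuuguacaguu
mmu-miR-3064-5p: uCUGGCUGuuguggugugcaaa
mmu-miR-3085-3p: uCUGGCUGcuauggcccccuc
Bases 2 to 7 of miR-1839-5p are bases 3 to 8 of let-7g-5p, a shift of 1 base, so the seeds differ. miR-1961 shares its first 13 bases with let-7g-5p, but its gene Mir1961 had 0 counts in both libraries.

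The libraries held 7935381 reads in replicate 1 and 13482882 in replicate 2. The authors' counts on the annotated strand of miRNA genes, called own-strand counts here, summed to 2388379 and 4447390. Levels are given as CPM, the counts per 1000000 of those totals. A count of 0 allows up to 3 counts, which is 1.26 CPM in replicate 1 and 0.675 CPM in replicate 2. Reads that mapped to several places were 48.6% and 52.8% of mapped reads and are in no gene's count. Neuronal miRNA genes summed to 89367 and 77420 CPM, with a count for all 11 of these markers in the files. Mir132 held the largest part, at a mean of 49092 CPM, with a log2 ratio of replicate 2 over replicate 1 of −0.68. Of the neuronal markers with 10 or more counts in each library, Mir138-2 was also lower in replicate 2 (−0.08). Mir128-1, Mir128-2, Mir137, Mir138-1, Mir129-1 and Mir129-2 were higher, from 0.11 to 0.75, so the sum does not stand for each marker. Liver Mir122 stood at 54.0 and 57.6 CPM. Of 9 heart and muscle markers 5 had a count, with Mir133b, Mir1a-1, Mir133a-1 and Mir133a-2 at 0 and a sum of 34.8 and 43.8 CPM. Oligodendrocyte markers summed to 2726 and 3556 CPM, and microglia and leukocyte markers to 1513 and 1639 CPM. Red cell markers summed to 134 and 144 CPM, and pancreas and gut markers to 125 and 159 CPM with Mir215 at 0. These sums do not stand for each marker either. Oligodendrocyte Mir219a-2 had a log2 ratio of 0.72, Mir338 −0.03 and Mir219a-1 −0.75. Mir150 held the largest part of the microglia and leukocyte sum, at a mean of 1427 CPM. Of the red cell markers Mir144 stood at 1.23, Mir451a at −0.08 and Mir486 at −0.31. Endothelial Mir126a differed more than these sums, at 10782 and 22504 CPM, and its part in the values below was not tested. In bulk tissue, fewer cells of a type and less RNA per cell cannot be told apart.

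The members were a small part of the cortical miRNA counts. They held 18321 counts in replicate 1, a share of 0.767% (95% Clopper-Pearson interval 0.756 to 0.778%), and 34492 in replicate 2, a share of 0.776% (0.767 to 0.784%). The mean share was 0.771% ± 0.006 (SD, n = 2), and the intervals overlapped. No molecular identifiers are stated for these reads, so both the intervals and the 3-count limit hold for counting error alone. Genes numbered below 1000 held 74.5% of the counts with 514 genes, and the 470 genes numbered 4000 and above held 0.188%.

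Of the 166 members, 89 (53.6%) had at least 1 count in either library and 77 had none. At least 10 counts in each library, the level taken here as measured, were reached by 43 members (25.9%), while 46 had a count but stayed below it. The measured members are therefore those that passed a filter on low values. The same level was reached by 269 of 514 genes numbered below 1000 (52.3%), by 52 of 470 numbered 4000 and above (11.1%) and by 392 of all 2202 genes (17.8%). The deeper library counted more members: 74 had a count in replicate 1 and 87 in replicate 2, and thinning replicate 2 to the total of replicate 1 would leave an expected 80.3. Measured members ran from 3.89 to 1929 CPM with a median of 15.5 CPM, against a median of 330 CPM for measured genes numbered below 1000 and 8.64 CPM for those numbered 4000 and above. Mean levels above 100 CPM were found in 11 members, and above 1000 CPM in 2.

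Detection differed along the number series. Members numbered from 1000 to below 1800 had 11 of 16 genes with a count and 5 measured. Of the 62 members numbered from 1800 to below 2000, 28 had a count and 13 were measured, and this block held 0.437% of all counts, with Mir1839, Mir1983 and both Mir1843 genes in it. All 4 members numbered from 2000 to below 3000 were at 0. Members numbered from 3000 to below 3400 had 41 of 54 with a count and 21 measured, and those numbered 3400 and above had 9 of 30 and 4. The plot of detection by number block shows these counts. Members with a letter or copy suffix were counted in 8 of 25 cases and measured in 3, against 81 and 40 of the 141 without one.

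**Figure D1:**
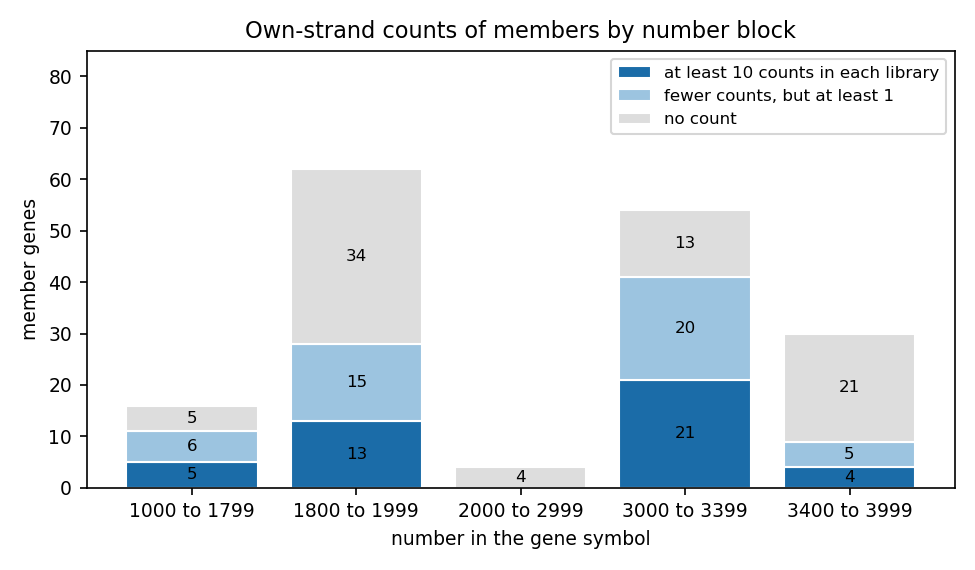
Number of member genes (vertical axis) in each block of gene numbers (horizontal axis), split into genes with at least 10 own-strand counts in each of the 2 libraries, genes with fewer counts but at least 1, and genes with no count. The block that starts at 3000 holds 21 measured genes and the block that starts at 2000 holds none.

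Few genes carried most of the members' counts. Mir1839 alone held 25.0%, the 3 highest members held 55.4% ± 5.10 and the 10 highest held 91.4% ± 0.337 (SD, n = 2). The plot of the 20 highest members shows their level in each library. Levels between genes are per gene and not per length, as mature miRNAs are of similar size, 17 to 26 bases here with a median of 22.

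**Figure D2:**
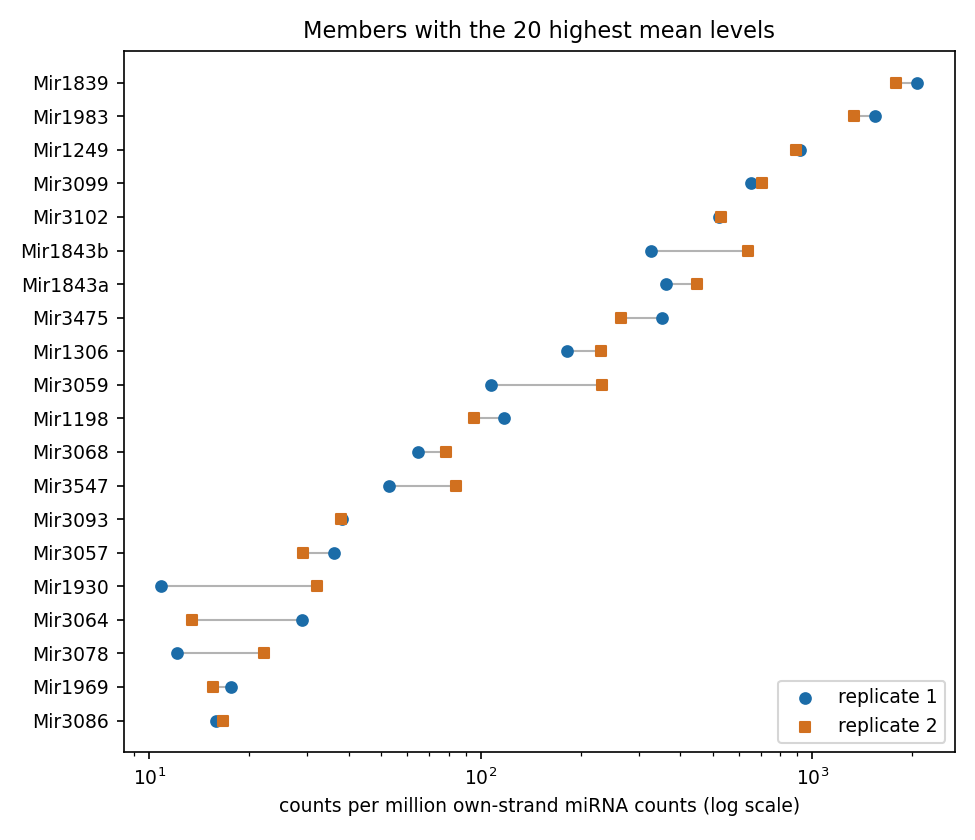
Level of the 20 members with the highest mean, in own-strand CPM on a log scale, with 1 point for each of the 2 libraries (circle, replicate 1; square, replicate 2) and a line joining them. Mir1839 stands highest at 2067 and 1791, and Mir1843b, Mir3059, Mir1930, Mir3064 and Mir3078 show the widest gaps among those drawn.

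The highest member was Mir1839, with 4937 counts in replicate 1 and 7965 in replicate 2, or 2067 and 1791 CPM. Its mean of 1929 ± 195 CPM (SD, n = 2) ranked 71st of the 2202 genes. The gene lies at chromosome 7, 81529916 to 81529988, plus strand (mm10), in an exon of the long non-coding RNA 2900076A07Rik. At the same place the annotation has a scaRNA that also carries the name Mir1839. The hairpin is shown with its listed mature sequence in capitals.
Mir1839 hairpin: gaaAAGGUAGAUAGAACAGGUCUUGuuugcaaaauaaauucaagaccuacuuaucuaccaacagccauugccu

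Mir1983 came second, with 3692 and 5942 counts, 1546 and 1336 CPM, and a mean of 1441 ± 148 CPM. In the gene annotation used here it lies between genes at chromosome 13, 21896918 to 21897049, minus strand. Overlap with nuclear tRNA genes was not tested. Its listed hairpin holds the letters GUUCGANNC, the form of the B box inside tRNA genes, where N is any base. On either strand this motif occurred in 5 of 1005 RefSeq mouse miRNA hairpins (0.498%), and among the 135 member hairpins in Mir1983 only. A match is a description of the letters. The mature sequence, in capitals, begins at the last letter of the motif.
Mir1983 hairpin: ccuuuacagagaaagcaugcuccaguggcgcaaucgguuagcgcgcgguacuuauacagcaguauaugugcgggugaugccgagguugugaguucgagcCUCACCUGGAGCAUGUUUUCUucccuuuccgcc

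The next 3 members were nearly level between the libraries. Mir1249 had 2187 and 3968 counts, a mean of 904 ± 16.6 CPM, and lies at chromosome 15, 84951526 to 84951623, minus strand, in an exon of a non-coding transcript of 5031439G07Rik. Mir3099 had 1554 and 3134 counts, a mean of 678 ± 38.2 CPM, and lies in an intron of Usp29, a paternally expressed imprinted gene, at chromosome 7, 6803587 to 6803670, plus strand. Mir3102 had 1248 and 2358 counts, a mean of 526 ± 5.42 CPM, and lies in Arhgef17, at chromosome 7, 100882306 to 100882409, minus strand. Mir3102 has 4 listed mature sequences, an outer and an inner pair of arms, and per-gene counts sum over all of them.

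Below these, Mir3475 had 841 and 1181 counts, 352 and 266 CPM, and lies between genes at chromosome X, 140310948 to 140311012, plus strand. Mir1306 had 434 and 1022 counts, 182 and 229.8 CPM. It lies at chromosome 16, 18284239 to 18284317, minus strand, in a coding exon of Dgcr8, whose protein is the RNA-binding partner of Drosha. Mir3059 had 257 and 1031 counts, 108 and 232 CPM with a mean of 170 ± 87.8, in an intron of the N-glycan branching family gene Mgat4c at chromosome 10, 101772692 to 101772772, plus strand. Mir1198 had 280 and 425 counts, a mean of 106 ± 15.3 CPM, and lies in an intron of Gripap1, which encodes a protein of AMPA receptor trafficking. The step from Mir1306 to Mir3059 was smaller than the spread of Mir3059 between libraries, so their order is not resolved.

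The lower members of the 20 had varied hosts. Mir3547 lies in Baiap3, Mir1930 in Ube2g2 and Mir3057 in a coding exon of Apba3. Mir3064 lies in an exon of Ddx5, an RNA helicase that works with Drosha, and had 69 and 60 counts. Mir3093, in an intron of Gm3764, had 91 and 169 counts, 38.1 ± 0.0717 CPM, and lies 341 bases from Mir9-1, whose own uniquely counted reads were 41 and 103. Mir3078, in an exon of the host transcript Mir124a-1hg, had 29 and 99 counts and lies 444 bases from Mir124a-1, which had 9 and 9. Mir9-1 and Mir124a-1 each have near-identical copies, so their unique counts leave out shared reads, and no level of the neighbours can be set against the members. Mir1969 and Mir3086 closed the 20 at 16.5 and 16.3 CPM. Mir1247, in an exon of Dio3os, had 20 and 50 counts, and Mir1251, in an intron of the neural non-coding RNA Rmst, had 4 and 14.

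The libraries were compared gene by gene with an exact binomial test on own-strand counts, two-sided, with Benjamini-Hochberg adjustment over the 392 measured genes and a threshold of 0.05. It compares 2 libraries, covers counting error only and says nothing about a condition. Of the 43 measured members 13 passed (30.2%), with 8 higher in replicate 2 and 5 lower. Over all 392 genes 56.9% passed, 34.2% higher and 22.7% lower. Power follows the counts, and the measured members had a lower median than all measured genes, 15.5 against 121 CPM, so the difference in shares was not tested. A second test used a spread between the libraries pooled over genes (edgeR exact test, common dispersion). With it 0 members passed and 1 had an unadjusted p under 0.05, against 0.765% of all genes passing. That spread was estimated from the same 2 libraries that were compared. The difference under test therefore sets its own yardstick, few calls can result, and no conclusion is drawn from the 0. The lowest adjusted p among members in that edgeR test was 0.849, for Mir1930.

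The differences were mostly small. Over the 43 measured members the median log2 ratio of replicate 2 over replicate 1 was −0.04, with 18 above 0 and 25 below. Over all 392 genes it was 0.06 (CPM with a pseudocount of 1). With a minimum of 100 counts the medians were 0.11 over members and 0.09 over all genes tested. The sign and the order of the medians therefore depended on the minimum. Of the 43 members 37 (86.0%) lay within 1.5-fold, against 284 of 392 genes (72.4%). The 13 members with at least 100 counts in each library had log2 ratios from −0.41 to 1.11 with an SD of 0.48, where counting error alone gives 0.08. The plot of ratios against level places the members among the other genes.

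**Figure D3:**
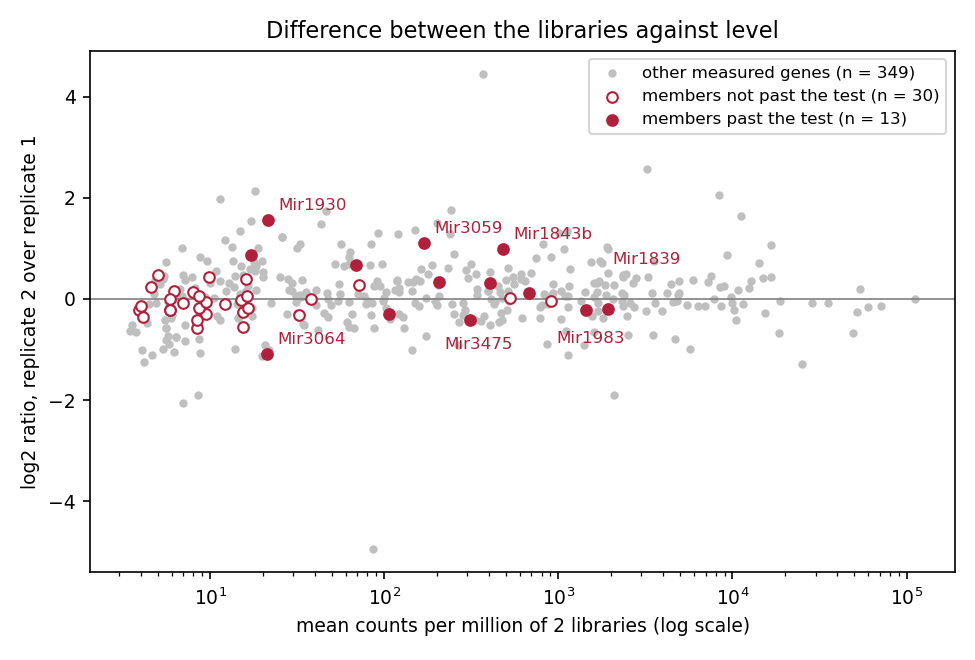
Log2 ratio of CPM, replicate 2 over replicate 1, against the mean level on a log scale, for the 43 measured members (filled where past the exact binomial test, open where not) and 349 other measured genes (grey). The members lie between −1.10 for Mir3064 and 1.56 for Mir1930.

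Among members with 100 or more counts in each library, Mir3059 differed most: its 108 CPM in replicate 1 and 232 CPM in replicate 2 are a 2.15-fold difference (log2 1.11, exact binomial adjusted p = 2.85e-31). Mir1843b followed, with 325 and 641 CPM, 1.97-fold (adjusted p = 4.10e-70 by the exact binomial test). Mir3547 was 1.59-fold higher in replicate 2, Mir1306 1.26-fold and Mir1843a 1.24-fold. In the other direction Mir3475 was lower in replicate 2 by 0.41 on the log2 scale (−0.41, 1.33-fold; exact binomial adjusted p = 1.83e-09), and Mir1839 and Mir1983 both stood at −0.21. Mir1198 was at −0.29 with an exact binomial adjusted p of 0.0169. At lower counts, Mir1930 had 26 and 143 counts (log2 1.56, exact binomial adjusted p = 4.78e-08), Mir3078 29 and 99 (log2 0.87), and Mir3064 69 and 60 (−1.10). Mir1249, Mir3102, Mir3068 and Mir3093 did not pass, with log2 ratios of −0.04, 0.02, 0.28 and −0.00. Mir3099 passed at 0.12 (exact binomial adjusted p = 0.0185). With TMM scaling it did not, at 0.06 with an adjusted p of 0.291, and Mir1249 then passed at −0.10 with an adjusted p of 0.0246. Unmapped reads were 31.6% in replicate 1 and 18.2% in replicate 2, and their part in these ratios, like that of the multimapping reads, was not tested.

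A group of members overlaps other small RNA genes on the same strand. The annotation has a scaRNA or snoRNA at 8 members: Mir1839, Mir1843a, Mir1843b, Mir3068, Mir3069 (Scarna13), Mir1291 (Snora34), Mir1949 and Mir3084-1. Of these 7 had a count and 6 were measured, and they held 0.291% ± 0.011 (SD, n = 2) of all counts, out of the members' 0.771%. scaRNAs guide chemical modification of spliceosomal RNAs, and fragments of them can enter the small RNA pool. The libraries held RNA under 30 bases, so whole scaRNAs are outside their size range. How the counts divide between Dicer products and other fragments was not tested.

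Mir1843a and Mir1843b are the related pair in this group. Mir1843a overlaps Scarna3b in an intron of Dcaf5 at chromosome 12, 80391613 to 80391677, minus strand, and had 865 and 1994 counts, 405 ± 60.9 CPM. Mir1843b overlaps Scarna3a in an intron of the ubiquitin ligase gene Cop1 at chromosome 1, 159340358 to 159340423, plus strand, and had 776 and 2852 counts, 483 ± 224 CPM. The means differed by less than the spread of Mir1843b, so their order is not resolved. The hairpins are shown with both listed arms in capitals, to compare the loci.
Mir1843a hairpin: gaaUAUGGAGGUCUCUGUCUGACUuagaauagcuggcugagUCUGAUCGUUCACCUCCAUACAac
Mir1843b hairpin: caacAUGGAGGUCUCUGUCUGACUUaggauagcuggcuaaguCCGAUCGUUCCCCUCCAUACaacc
The 5p arms share 20 bases, shifted by 1, so that the seeds differ. The whole miR-1843b-5p sequence also occurs in the Mir1843a hairpin. A read of those letters alone fits both genes and would be in neither count, so both counts may leave out reads of this arm.

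Mir3068, in an intron of Alkbh1 and under a snoRNA of the same name, had 154 and 348 counts, 71.4 ± 9.74 CPM. Mir1291, which overlaps Snora34 in an intron of Kansl2, had 7 and 63 counts and so missed the measured level. It is named because it was the member added when that level was dropped: the libraries differed 4.83-fold (95% interval 2.21 to 12.5, counting error only, exact binomial adjusted p = 1.69e-05).

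Most members lay in host genes. In protein-coding genes on the same strand there were 106 of the 166 (63.9%), against 229 of the 514 genes numbered below 1000 (44.6%). Among genes numbered 4000 and above the share was higher, 342 of 470 (72.8%), and over all genes it was 979 of 2202 (44.5%). Introns of protein-coding genes held 70 and exons 36, of which 10 were in coding sequence, 14 in untranslated regions, 5 in both and 7 in exons of non-coding transcripts. A further 30 lay between genes, 15 antisense to a gene only, 10 in exons and 5 in introns of non-coding genes. Of the members in protein-coding genes 31 of 106 were measured (29.2%), and of the others 12 of 60 (20.0%). Over all genes these were 204 of 979 (20.8%) and 188 of 1223 (15.4%). These shares follow from gene lists and carry no test.

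Copies in other annotated transcripts bear on some of the members at 0. The genome outside annotated transcripts was not searched. A mature sequence of 13 members also occurred in transcripts of other genes. Of these 13, 3 had a count and 2 were measured, Mir1843b with 776 and 2852 counts and Mir3074-1 with 23 and 32. The 4 members with the most copies were at 0: Mir3470b was found in 1067 other genes, Mir3473b in 743, Mir3473a in 283 and Mir3471-1 in 112. Since reads with several places are in no count, a 0 for these genes sets no limit on the RNA. Of the 132 members whose mature sequences occurred in no transcript of another gene, 76 had a count, 38 were measured and 56 had no count.

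Some members lie opposite another miRNA gene, and the authors counted the opposite strand as well. Mir3065 had 0 own-strand counts in both libraries, while its opposite strand had 3279 and 5964, which are the counts of Mir338, an oligodendrocyte miRNA. Mir3074-2 had 0 and 0 on its own strand and 95 and 287 opposite, the counts of Mir24-2. Mir3074-1 had 23 and 32 own-strand counts and 78 and 149 opposite, the counts of Mir24-1. miR-3074-5p occurs at both Mir3074 genes and miR-24-3p at both Mir24 genes, so reads of these arms that fit several places are in no count, and the 0 of Mir3074-2 sets no limit on that arm. The mature sequences of 2 such pairs are shown because the arms are nearly exact complements.
mmu-miR-3065-5p: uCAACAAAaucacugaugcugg
mmu-miR-338-3p: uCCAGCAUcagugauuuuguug
mmu-miR-3074-5p: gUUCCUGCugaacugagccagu
mmu-miR-24-3p: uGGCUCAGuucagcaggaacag
miR-3065-5p and miR-338-3p overlap by 21 bases on opposite strands and have unrelated seeds. Mir3107 showed the same arrangement, with 6 and 4 own-strand counts against 73 and 110 of Mir486 opposite. The mature sequences of Mir3107 and Mir486 were not compared, so reads that fit both genes may be missing from these counts. Mir3107 was named after its values were seen, and the others were chosen for an opposite-strand count above their own, so the direction at these loci is a description. The remaining 2 of the 6 members with a miRNA gene on the other strand, Mir3073a and Mir3073b, lie opposite each other, with 2 and 2 own-strand counts for Mir3073a and 0 and 1 for Mir3073b. In all, 12 members had any opposite-strand count, and 5 had over 10 in both libraries, of which 4 are given here.

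**Figure D4:**
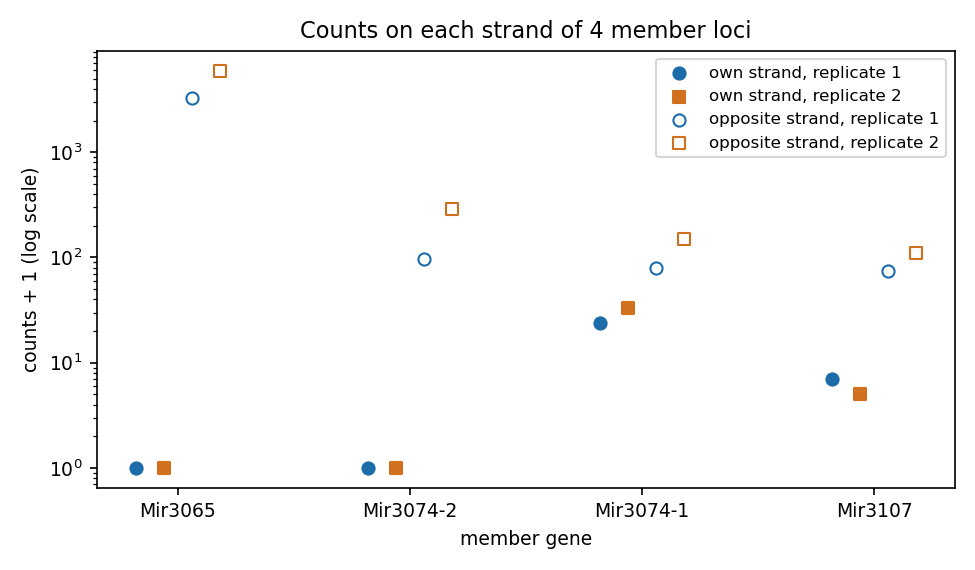
Own-strand (filled) and opposite-strand (open) counts plus 1, on a log scale, in each of the 2 libraries (circles, replicate 1; squares, replicate 2) for the 4 member loci that lie opposite another miRNA gene and have over 10 opposite-strand counts in both. Mir3065 and Mir3074-2 have 0 own-strand counts, and Mir3074-1 has 23 and 32. The loci were chosen with these counts known.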

How the data were processed

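Small RNA libraries from 2 mice were used. The authors' deposited tables hold whole-number counts per gene in 3 columns, with no normalization. Per the file headers the build is mm10 and the annotation GENCODE M21. An aligner or counter is not given in the sources used here. From the values, the columns were read as both strands, the annotated strand and the opposite strand, and 4 entries that name no gene (unmapped, multimapping, no feature, ambiguous) stayed out of totals and tests. In the both-strand column, overlapping genes on opposite strands are listed at 0.

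CPM was computed here from own-strand totals. The libraries were compared with an exact conditional binomial test (SciPy 1.17.1), Benjamini-Hochberg adjusted over genes reaching 10 counts in both libraries. Ratios of single genes carry no pseudocount. Scaling by TMM and an exact test with a common dispersion used edgeR 4.0.16, and size factors DESeq2 1.42.0. The code was tested on simulated data. Other alternatives were the count minimum, the pseudocount, both strands, the total without its most abundant gene, members without a suffix, and leaving out a replicate or the most abundant member.

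Members, gene lists and marker lists were chosen with earlier results of these data known. Named were the 20 highest members, those with at least 100 counts and the 5 largest ratios past the test in each direction, a fixed set (Mir1306, Mir1839, the Mir1843 genes, Mir1249, Mir1247, Mir1251, Mir3068 and Mir3059; Mir3618 is not among the members), the 3 with the most opposite-strand counts above their own, and miRNA neighbours within 10000 bases. Mir1291, Mir1961, Mir3085, Mir3107 and the repeat copies were added after their values or sequences were seen. Hairpins were taken from RefSeq, GRCm38.p6. The reads come from a cross of strains and were counted on mm10, and the effect of CAST/EiJ variants on the counts was not tested. The opposite-strand result of 1 member is not reported here.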

Additional observations from a re-analysis of the deposited data

Results flagged for a closer look

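The opposite-strand counts belong to no comparison above. Collected here are those of members opposite another miRNA gene that exceed 3 counts in both libraries, the limit that a count of 0 allows. At each of these loci they equal the own-strand counts of the miRNA gene opposite. Values are for replicate 1 and then replicate 2. Mir3065 had 3279 and 5964, Mir3074-2 95 and 287, Mir3074-1 78 and 149, and Mir3107 73 and 110.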

How the results depend on the processing

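The 13 members past the test, of 43 tested, became 14 of 89 with at least 1 count in either library. They became 10 of 13 with a minimum of 100 counts and 11 of 40 without suffixed members. Without members overlapping snoRNA or scaRNA genes, a setting chosen after seeing the data, they were 10 of 37. The number tested moved with these settings, so like counts are not like shares. In the main setting, with a minimum of 10 counts, 56.9% of all genes passed. The share of all genes passing at the other minimums is not given here. The member counts at those minimums therefore have no background beside them. TMM scaling, DESeq2 size factors and the total without the most abundant gene each gave 13 of 43, and both strands gave 13 of 42. With TMM and DESeq2 scaling 7 were higher and 6 lower, Mir1249 passed and Mir3099 did not. The edgeR exact test gave 0 (1 at an unadjusted p under 0.05, 13 by the binomial test), and its dispersion comes from the same 2 libraries it compares. Of 21 named members, the 13 with a call in the main test all lost it there, and the other 8 had no call in either. The mean share of 0.771% became 0.837% with both strands, where 166659 and 380286 ambiguous counts are outside the totals of replicates 1 and 2. It became 0.869% without the most abundant gene in the total and 0.681% without suffixed members. Without Mir1839 it was 0.578%, and without members overlapping snoRNA or scaRNA genes 0.480%. With 1 library left out the share ranged from 0.767 to 0.776%, and the members with 10 counts from 43 to 54. The median log2 ratio of measured members, −0.04, became −0.10 with TMM scaling, −0.10 with DESeq2 size factors and 0.11 with a minimum of 100 counts. Over all genes tested these medians were 0.005, −0.003 and 0.09. No paired analysis was possible because there is 1 group. With 2 mice, 1 library each, no spread between mice can be separated from library preparation, and a member below 10 counts was not resolved at this depth.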
